A study of Mus musculus with 12 samples.

Results

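Metalloproteinases and their TIMP inhibitors, 10 genes in all, were followed through an RNAseq experiment on RAW264.7 mouse macrophages, in which the splicing factor SF3a1 was depleted before the cells met LPS. The 10 genes are the inhibitors Timp1, Timp2 and Timp3, the matrix metalloproteinases Mmp9, Mmp12, Mmp13, Mmp14 and Mmp19, and the membrane proteases Adam8 and Adam17. All 10 were found by symbol among the 38215 genes of the deposited count table, and 8 of them had enough counts to enter the test across genes (14983 genes). Timp1 was chosen by its own values, because its counts rose from none to high with LPS and were cut by SF3a1 siRNA, so its values are given as a description, with no test, and counts of called genes below run over the 9 others.

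RAW264.7 is a macrophage-like line from a BALB/c mouse, and every library comes from this 1 line. The cells received control non-targeting siRNA (CT) or SF3a1 siRNA for 24 h and were then left without LPS or exposed to LPS (20 ng/ml) for 4 h, which gives 4 groups of 3 libraries each. Libraries of polyA RNA held between 12746019 and 41091887 counts in genes, and replicate 1 of each group was the deepest, after sequencing in 2 runs. Levels are given as CPM, the counts of a gene scaled to a common library size (with TMM factors). Sf3a1 itself checked the labels: it stood at 173, 216 and 185 CPM with control siRNA and at 27.1, 27.5 and 32.1 CPM with SF3a1 siRNA in cells without LPS, and at 150, 194 and 157 CPM against 30.3, 26.7 and 45.0 CPM in cells with LPS. The target was therefore at 15.1% and 20.4% of its control level.

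Matrix metalloproteinases are zinc-dependent enzymes that are made as inactive precursors and, once activated, cut collagens, elastin and other extracellular proteins. TIMPs (tissue inhibitors of metalloproteinases) bind their active sites and hold them in check, while ADAM proteases sit in the plasma membrane, where ADAM17 releases TNF and many other surface proteins. Macrophages are known to secrete several of these enzymes when they are activated, and the balance of enzyme and inhibitor is one way in which they act on the surrounding matrix.

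Promoter sequences were available for 8 of the 10 genes from RefSeq (GRCm38.p6), as windows from 250 bases before to 50 after the start used there. For Mmp14 that start differs from the one given below: the printed bases end at 54431597 and the gene span begins at 54431612. Those of Timp1, Mmp13 and Mmp14 are shown here, since these genes went from almost no counts in resting cells to clear expression with LPS. Each is the 250 bases before the start, 5′ to 3′ on the gene's own strand (plus for all), and capitals mark matches to an AP-1 motif (TGANTCA), an Ets motif (AGGAAG) or a TATA box (TATAAA), searched on both strands. No entry was found for Mmp9 and Mmp19.
Timp1, chrX:20869916-20870165: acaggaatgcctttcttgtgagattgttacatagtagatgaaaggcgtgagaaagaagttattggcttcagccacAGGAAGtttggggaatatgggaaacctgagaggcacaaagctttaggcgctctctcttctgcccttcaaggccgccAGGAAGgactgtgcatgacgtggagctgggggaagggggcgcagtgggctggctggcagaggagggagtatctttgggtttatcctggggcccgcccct
Mmp13, chr9:7272264-7272513: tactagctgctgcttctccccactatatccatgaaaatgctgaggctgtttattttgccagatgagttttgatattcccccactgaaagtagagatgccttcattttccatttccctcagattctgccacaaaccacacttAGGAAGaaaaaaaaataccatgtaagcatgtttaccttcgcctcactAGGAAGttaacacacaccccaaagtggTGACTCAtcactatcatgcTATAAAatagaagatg
Mmp14, chr14:54431348-54431597: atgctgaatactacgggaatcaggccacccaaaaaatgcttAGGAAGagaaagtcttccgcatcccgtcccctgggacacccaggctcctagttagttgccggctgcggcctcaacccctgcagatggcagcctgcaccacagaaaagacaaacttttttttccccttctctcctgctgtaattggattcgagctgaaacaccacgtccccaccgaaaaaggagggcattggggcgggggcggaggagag

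Over the whole windows, Timp1 held 3 Ets matches, Mmp13 held 1 AP-1 match, 2 Ets matches and a TATA box, and Mmp14 held 1 Ets match. Among all 32851 promoter windows, 7.81% held the AP-1 letters, 35.4% the Ets letters, 13.6% the TATA box and 1.63% an NF-kB motif, which none of the 3 genes held. The NF-kB and AP-1 letters were also absent from the windows of Timp2, Timp3, Adam8 and Adam17. In Mmp12, 1 of the 2 windows held the AP-1 letters before its start and the letters TATAAA after it. A match describes the sequence and is not evidence of binding.

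Timp1 encodes a secreted inhibitor of most matrix metalloproteinases and lies on the X chromosome (chrX:20870166-20874735, mm10, plus strand), within the span of Syn1 on the other strand, with 0 exonic bases shared. It had 0 counts in each of the 3 resting control libraries, where a count of 0 allows up to 0.0335 CPM over the group. With LPS it stood at 60.5, 60.5 and 57.8 CPM, a mean of 59.6 ± 1.57 (SD, n = 3). Over the summed counts of each group, 4090 with LPS against the limit of 3 without, Timp1 was at least 1783-fold higher with LPS. The 3 libraries with LPS lay close together and far from those without.

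With SF3a1 siRNA, Timp1 was lower in cells with LPS, which is part of why it was chosen. Without LPS the control libraries held 0 counts, so the knockdown libraries could only match or exceed them. Without LPS the knockdown cells held 4, 2 and 4 Timp1 counts (0.146, 0.111 and 0.298 CPM), at least 5.07-fold above the resting control cells over the summed counts. With LPS they held 15.8, 16.0 and 8.42 CPM, a mean of 13.4 ± 4.30 (SD, n = 3), or 22.5% of the level in control cells with LPS. The order of the groups was thus resting control, resting knockdown, knockdown with LPS and control with LPS, and no library of 1 group overlapped those of the next. This order follows in part from the values that Timp1 was chosen on. Knockdown cells still showed a response to LPS, and mean Timp1 was 72.4-fold higher with LPS than without. Within replicates 1, 2 and 3 it was 108-, 143- and 28.3-fold higher. These ratios are imprecise, since they rest on the 4, 2 and 4 counts without LPS. In these bulk libraries, fewer cells that express a gene and less RNA per cell cannot be told apart.

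Timp2 (chr11:118301069-118355740, minus strand), an inhibitor that also takes part in the activation of the MMP2 precursor at the cell surface together with MMP14, had its lowest mean in control cells with LPS and its highest in resting knockdown cells. In resting control cells it stood at 2.04, 2.46 and 3.62 CPM, and in control cells with LPS at 0.605, 1.67 and 1.29 CPM. In resting knockdown cells it stood at 7.84, 29.2 and 29.1 CPM, and in knockdown cells with LPS at 2.54, 6.65 and 7.94 CPM. Each knockdown library was above its control counterpart, and replicate 1 was the lowest of the 3 in each group.
SF3a1 siRNA raised Timp2 8.14-fold without LPS (log2 fold change 3.03, SE 0.552, adjusted p = 0.00161 from edgeR's quasi-likelihood F-test, adjusted by Benjamini and Hochberg's method over all genes tested) and 4.81-fold with LPS (2.34, SE 0.587, adjusted p = 0.00938). LPS lowered Timp2 in knockdown cells to 25.9% of its level without LPS (log2 -1.95, SE 0.528, adjusted p = 0.0409), although the groups overlapped, through the low replicate 1 without LPS. That call was lost without knockdown replicate 2 or replicate 3 of the cells without LPS (adjusted p = 0.146 and 0.143) or without replicate 1 of those with LPS (0.108). In control cells the level with LPS was 43.9% of that without (log2 -1.26, adjusted p = 0.144), and this difference passed the test with the replicate number as a block (adjusted p = 0.00414), without a filter on low counts (0.00368), with DESeq2 (0.0829) and within replicates 2 and 3 (0.0164), as well as without knockdown replicate 1 of the cells without (0.0670) or with LPS (0.0992).

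Timp3 (chr10:86300372-86349506, plus strand), the inhibitor that binds to the matrix and also acts on ADAM17, was at the edge of detection in every group. Its counts were 2, 2 and 2 in resting control cells, 0, 0 and 1 with LPS, 0, 0 and 1 in resting knockdown cells, and 0, 1 and 1 in knockdown cells with LPS. Timp3 shares 1733 exonic bases with Syn3 on the other strand. It did not enter the test, and no difference was detectable at this depth. Of the 3 inhibitors, Timp1 was the most abundant per kilobase of exon in control cells with LPS (67.1 CPM per kb, against 0.305 for Timp2), and Timp2 was the most abundant in resting knockdown cells (5.65 against 0.208 CPM per kb for Timp1).

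**Figure D1:**
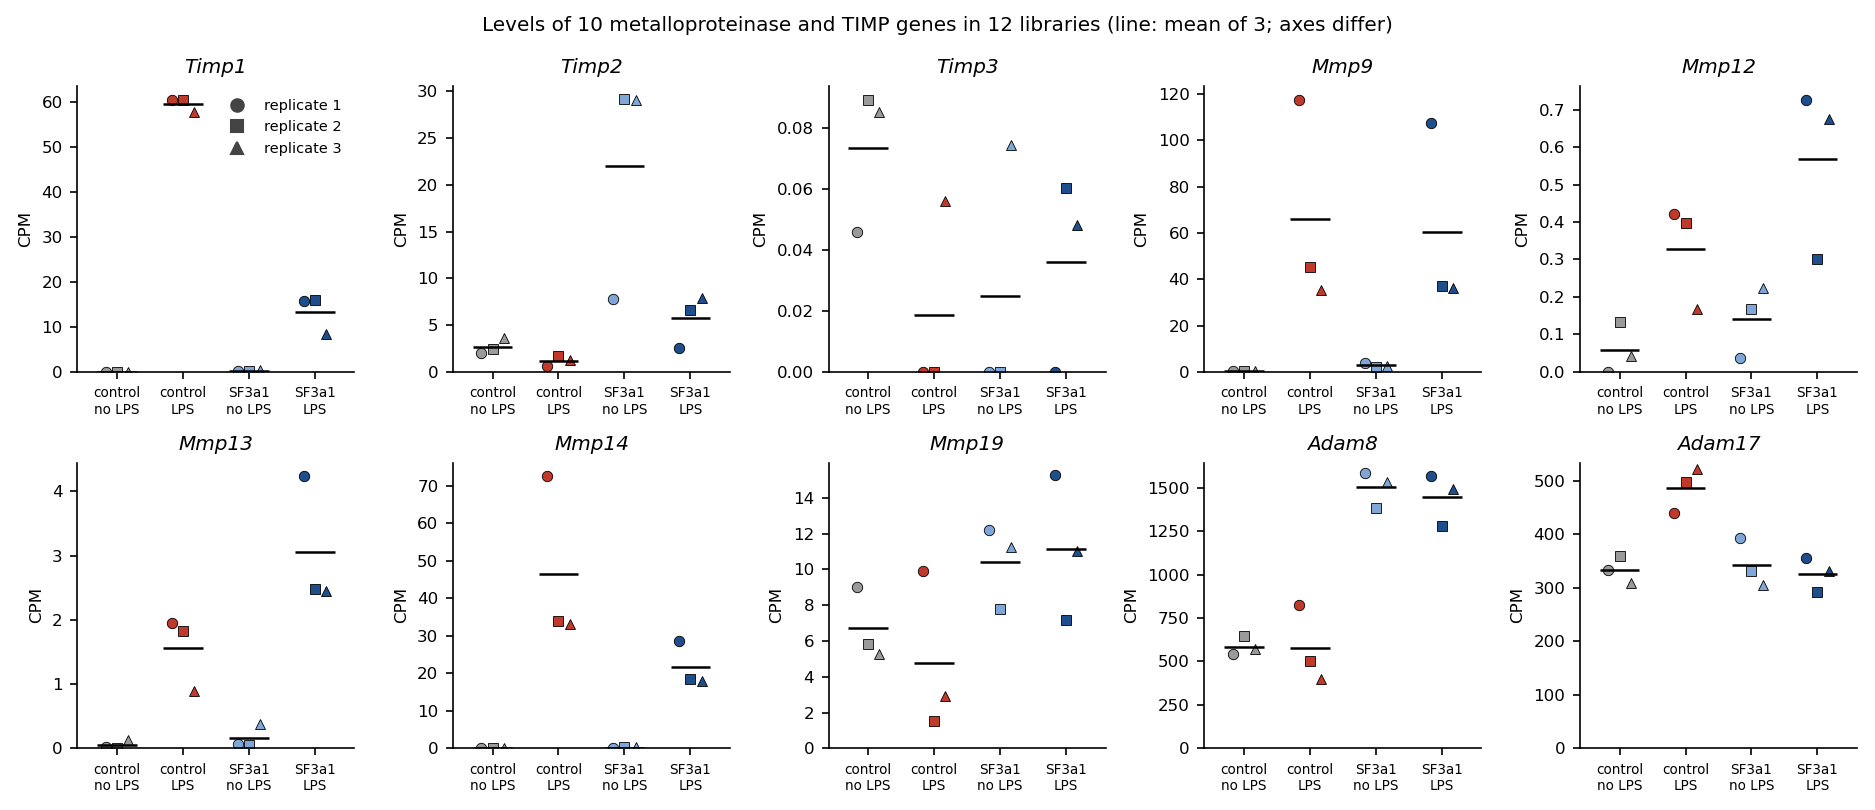
Levels of the 10 genes in the 12 libraries, in CPM on linear axes that start at 0 and differ between genes. Symbols mark the replicate number and lines the mean of 3 libraries. Timp1 was at 0 in resting control cells and near 60 CPM with LPS, Timp2 was highest in resting knockdown cells, and Adam8 was higher in the 6 libraries with SF3a1 siRNA than in the 6 with control siRNA.

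Mmp9 and Mmp14 were nearly silent in resting control cells and were among the most strongly raised genes of the family with LPS. Mmp9 (gelatinase B, chr2:164940780-164955850, plus strand), which cuts denatured collagen and basement membrane collagen, stood at 0.229, 0.313 and 0.298 CPM in resting control cells and at 118, 45.1 and 35.6 CPM with LPS. Replicate 1 was well above the other libraries with LPS, yet the lowest library with LPS was still far above the highest without.
LPS raised Mmp9 236-fold in control cells (log2 7.90, SE 0.691, adjusted p = 3.32e-06). It did so in each replicate, by 513-, 144- and 119-fold.

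SF3a1 siRNA raised Mmp9 in resting cells but not in cells with LPS. Resting knockdown cells held 3.65, 2.12 and 2.53 CPM, 9.87-fold above resting control cells (log2 3.34, SE 0.691, adjusted p = 0.00342). Knockdown cells with LPS held 108, 37.1 and 36.4 CPM, which overlapped the control libraries with LPS, and the log2 fold change between them was -0.13 (SE 0.461, adjusted p = 0.866). From their higher start, knockdown cells showed a 21.8-fold rise with LPS (log2 4.43, SE 0.552, adjusted p = 0.000212).
Mmp9 was the 1 gene of the 7 tested whose LPS response differed between the siRNAs (difference of log2 fold changes -3.48, SE 0.839, adjusted p = 0.0542), beside 3.47% of all genes tested. This call was lost with limma-voom (adjusted p = 0.265) and without any 1 of 6 libraries, the 3 resting control libraries, resting knockdown replicates 1 and 3, and knockdown replicate 3 with LPS (adjusted p = 0.106 to 0.145). Without control replicate 1 with LPS the difference was smaller, at -2.76 (adjusted p = 0.0577). The call was kept with the replicate number as a block (-3.60, adjusted p = 0.000687) and within replicates 2 and 3 (-3.02, adjusted p = 0.00162).

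Mmp14 (MT1-MMP, chr14:54431612-54445364, plus strand), a membrane-bound collagenase that activates the MMP2 precursor, had 1 count in the 3 resting control libraries together. With LPS the control libraries stood at 72.6, 33.9 and 33.2 CPM, a ratio of 4941 with an exact 95% counting interval of 886 to 195200. The fitted log2 fold change was 11.49 (SE 0.746), with no p given because Mmp14 entered the test only through its libraries with LPS and had to differ. Replicate 1 was again the highest of the LPS libraries.
Knockdown cells with LPS held less Mmp14, at 28.7, 18.4 and 17.9 CPM, which is 46.5% of the control level and below each control library (log2 -1.11, SE 0.376, adjusted p = 0.0412). Without replicate 1 of the control cells with LPS the decrease was smaller and missed the test (log2 -0.63, adjusted p = 0.193), and it also missed it without knockdown replicate 2 (0.115) or 3 (0.138) with LPS. Within replicates 2 and 3 alone it passed (log2 -0.89, adjusted p = 0.00205). In resting cells Mmp14 had 7 counts with SF3a1 siRNA against 1 with control siRNA, a ratio of 10.7 with a counting interval of 1.37 to 480 (adjusted p = 0.149). This difference passed with the replicate block (0.0876), DESeq2 (0.0396), no filter on low counts (0.0391), within replicates 2 and 3 (0.00454), and without resting knockdown replicate 1 (0.0424) or control replicate 1 with LPS (0.0853). The difference between the 2 LPS responses was -4.08 on the log2 scale (adjusted p = 0.220), and it passed with the block (0.0911), DESeq2 (0.0334), no filter (0.00551), within replicates 2 and 3 (0.0118) and without resting knockdown replicate 1 (0.0865).

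Mmp13 (collagenase, chr9:7272514-7283331, plus strand), which cuts fibrillar collagen, rose with LPS to a far lower level. It held 1, 0 and 3 counts in resting control cells and stood at 1.95, 1.83 and 0.898 CPM with LPS (log2 4.94, SE 0.774). In knockdown cells it stood at 0.0729, 0.0557 and 0.372 CPM without and at 4.24, 2.48 and 2.45 CPM with LPS (log2 4.37, SE 0.698). Mmp13 too entered the test only through the libraries with LPS, so no p is given for LPS. The knockdown libraries with LPS lay above the control libraries with LPS, at 1.96 times their mean, but this difference missed the test (log2 0.97, SE 0.533, adjusted p = 0.194), and passed it with limma-voom (0.0926).
Mmp12 (macrophage elastase, chr9:7344381-7369499, plus strand) had 0, 3 and 1 counts in resting control cells, 16, 5 and 3 with LPS, 1, 3 and 3 in resting knockdown cells, and 24, 5 and 14 in knockdown cells with LPS. The libraries with LPS were above those without in CPM for both siRNAs, but the counts were too low for the test. Mmp12 shares 157 exonic bases with Mmp1b on the other strand.

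Mmp19 (chr10:128790910-128800824, plus strand), a metalloproteinase of the basement membrane that is also found on myeloid cells, stood at low levels in each group, and its calls depended on the fit. It stood at 9.03, 5.85 and 5.28 CPM in resting control cells, 9.89, 1.51 and 2.92 CPM with LPS, 12.2, 7.80 and 11.2 CPM in resting knockdown cells, and 15.3, 7.19 and 11 CPM in knockdown cells with LPS. Replicate 1 was the highest in each group. With LPS in control cells the log2 fold change was -0.45 (adjusted p = 0.609), but without replicate 1 of the control cells with LPS it was -1.58 (adjusted p = 0.0137), and within replicates 2 and 3 alone -1.29 (0.0153). Each resting knockdown library was above its control counterpart (log2 0.63, SE 0.515, adjusted p = 0.419), a difference that passed within replicates 2 and 3 alone (log2 0.77, adjusted p = 0.0741). Each knockdown library with LPS was above its control counterpart, by 1.55-, 4.76- and 3.78-fold, and the difference missed the test (log2 1.18, SE 0.522, adjusted p = 0.107) but passed it with the replicate block (log2 1.33, adjusted p = 0.00482), without a filter on low counts (0.0026), with DESeq2 (0.0556) and with limma-voom (0.0693). It also passed within replicates 2 and 3 (0.000871) and without resting control replicate 1 (0.0986), control replicate 1 with LPS (0.00145) or knockdown replicate 2 with LPS (0.0854). Mmp19 shares 789 exonic bases with Tmem198b on the other strand, and the use of strand in the counting is not given in the sources used here.

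Adam8 and Adam17 were the most abundant genes of the set in resting cells, at 126 and 46.6 CPM per kilobase of exon in control cells. Adam8 (chr7:139978932-139992562, minus strand), a membrane protease of myeloid cells, stood at 541, 646 and 569 CPM in resting control cells and at 827, 501 and 401 CPM with LPS, so replicate 1 was higher and the others lower with LPS (log2 -0.02, SE 0.218, adjusted p = 0.960). Within replicates 2 and 3 alone the decrease passed the test (log2 -0.43, adjusted p = 0.0669). With SF3a1 siRNA it stood at 1586, 1385 and 1535 CPM without LPS and at 1568, 1279 and 1492 CPM with LPS. The 6 knockdown libraries lay above the 6 control libraries without overlap.
The increase with SF3a1 siRNA was 2.57-fold without LPS (log2 1.36, SE 0.222, adjusted p = 0.000790) and 2.51-fold with LPS (log2 1.33, SE 0.222, adjusted p = 0.000777). The LPS response of Adam8 differed between the siRNAs by -0.03 on the log2 scale (SE 0.308, adjusted p = 0.990).

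Adam17 (chr12:21323509-21373632, minus strand), the protease that sheds TNF (TACE), was highest in control cells with LPS. It stood at 332, 359 and 309 CPM in resting control cells and at 440, 498 and 522 CPM with LPS, a 1.46-fold rise (log2 0.55, SE 0.141, adjusted p = 0.0115). In knockdown cells it stood at 393, 331 and 304 CPM without and 356, 292 and 332 CPM with LPS, and LPS gave a log2 fold change of -0.07 (SE 0.141, adjusted p = 0.889).
Knockdown cells with LPS thus held 67.1% of the Adam17 level of control cells with LPS (log2 -0.58, SE 0.141, adjusted p = 0.00808), and the difference was -0.71 within replicates 2 and 3. The difference between the 2 LPS responses was -0.62 on the log2 scale and missed the test (SE 0.199, adjusted p = 0.156), but passed it with the replicate block (adjusted p = 0.0597) and with DESeq2 (0.0535). Adam17 shares 311 exonic bases with Iah1 on the other strand, which was higher in knockdown cells with LPS (log2 0.58, adjusted p = 0.00848).

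**Figure D2:**
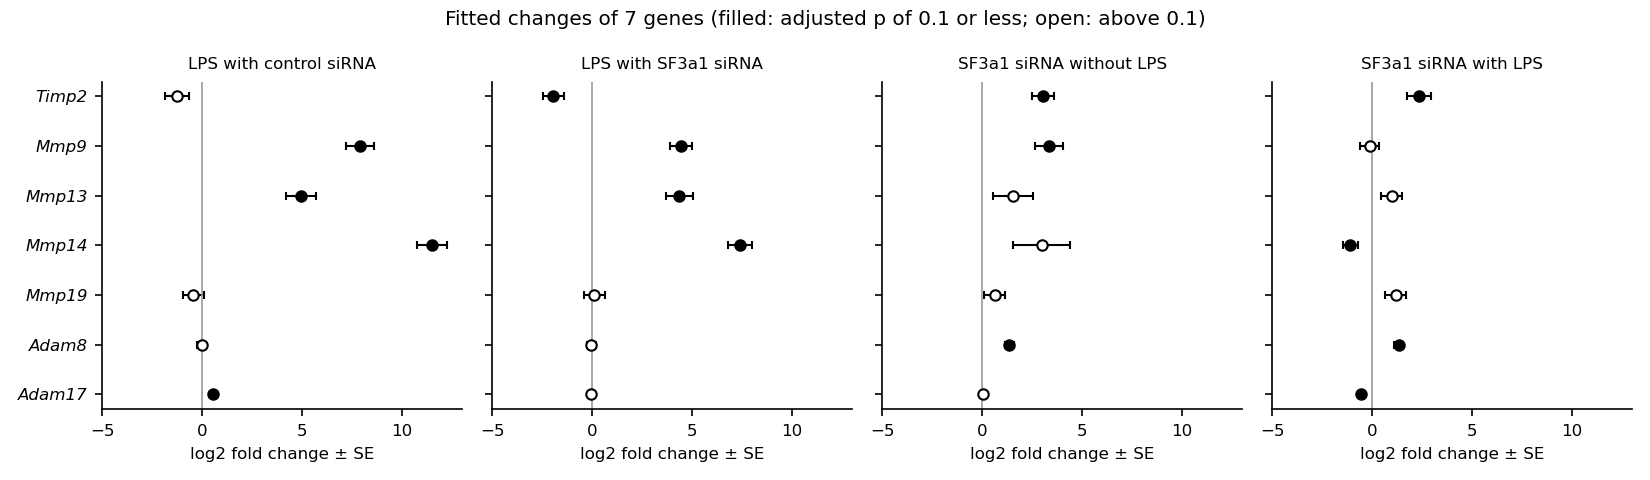
Log2 fold changes with their standard errors for the 7 genes that were tested besides Timp1, in 4 comparisons on the same axis. Filled points have an adjusted p of 0.1 or less. Mmp9, Mmp13 and Mmp14 lie far right of 0 in both LPS comparisons, Timp2 and Adam8 lie right of 0 in both SF3a1 comparisons, and Adam17 is filled on opposite sides of 0 for LPS with control siRNA and for SF3a1 siRNA with LPS.

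Set side by side, LPS changed 4 of the 9 genes besides Timp1 in control cells (all higher), where 32.1% of all genes tested were called (13.8% higher, 18.3% lower), and 4 of 9 in knockdown cells (3 higher, 1 lower), where 10.7% were called (6.6% higher, 4.06% lower). SF3a1 siRNA changed 3 of 9 without LPS (all higher), beside 33.8% of all genes (13.7% higher, 20.1% lower), and 4 of 9 with LPS (2 higher, 2 lower), beside 38.8% (18.4% higher, 20.4% lower). The LPS response differed between the siRNAs for 1 of 9 (Mmp9, lower), beside 3.47% (520 genes, 1.54% higher, 1.94% lower). With the replicate block 3 of 9 passed there, beside 1756 genes. Leaving out 1 library gave 0 to 1 of 9, beside 273 to 711 genes. For LPS in knockdown cells (1598 genes), 3115 genes passed with the block and 1050 to 2005 without 1 library. The 2 groups of libraries did not overlap for 6 of the 9 genes with LPS in control cells (40.2% of all genes tested), 4 with LPS in knockdown cells (24.8%), 3 with SF3a1 siRNA without LPS (45.6%) and 5 with it in cells with LPS (39.1%). Timp3 and Mmp12 are among the 9 and had too few counts for the test. Mmp12 is still counted among the 6 and the 4 genes that did not overlap with LPS, while the shares run over tested genes only. Mmp13 and Mmp14 entered it only through their levels with LPS, so they had to differ there, and the LPS counts are no evidence about the family. The comparisons share groups of libraries and are not independent of each other.

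Exon bins were examined because SF3a1 is part of the splicing machinery. In SF3a1 depletion without LPS, 1 of 115 bins tested in 8 of the 10 genes changed its use relative to the rest of its gene, beside 0.626% of all 153624 bins tested. This was bin 15 of Adam8 (chr7:139986487-139986732, mm10, minus strand), a stretch of 246 bases that 1 of 8 annotated Adam8 transcripts, of the retained intron class, keeps and that others splice out as an intron. It is printed because it is the 1 called bin of the 10 genes. It was read 5′ to 3′ on the minus strand from the GENCODE vM21 (GRCm38) transcript that keeps it, and the capitals mark its first and last 2 bases.
Adam8 bin 15: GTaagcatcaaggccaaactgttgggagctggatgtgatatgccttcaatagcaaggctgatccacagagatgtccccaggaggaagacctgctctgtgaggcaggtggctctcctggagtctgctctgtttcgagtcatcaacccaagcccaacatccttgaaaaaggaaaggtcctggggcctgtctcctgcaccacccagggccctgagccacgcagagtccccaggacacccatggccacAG

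The bin is exactly an annotated intron in 1 coding transcript, with the usual GT and AG ends, and in 3 others (2 of them coding) the intron runs on for 18 more bases (264 in all), which were counted as bin 14. The share of Adam8 bin counts that fell in bin 15 was 0.102, 0.0687 and 0.101% in resting control cells and 0.277, 0.348 and 0.278% in resting knockdown cells. The count behind each share was 41, 15 and 21 against 201, 133 and 88, and the bin's use rose by 1.72 on the log2 scale (adjusted p = 0.00336, diffSpliceDGE). This call was lost without resting control replicate 2.
With LPS the shares were 0.126 and 0.0726% in 2 control libraries and 0.231, 0.440 and 0.341% in the knockdown libraries, with no overlap (log2 1.51, adjusted p = 0.101, and 0.0414 with the replicate block). Bin counts of control replicate 3 with LPS were not analysed here. The bin held well under 1% of the gene's counts in each library, and the neighbouring exon, bin 16, held 2.08 to 2.92%. None of the 115 bins tested changed with LPS under either siRNA (0.0801 and 0.0254% of all bins were called). The same held for SF3a1 siRNA in cells with LPS (0.492% were called). In that order, 1, 2 and 3 bins had an unadjusted p under 0.05.

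**Figure D3:**
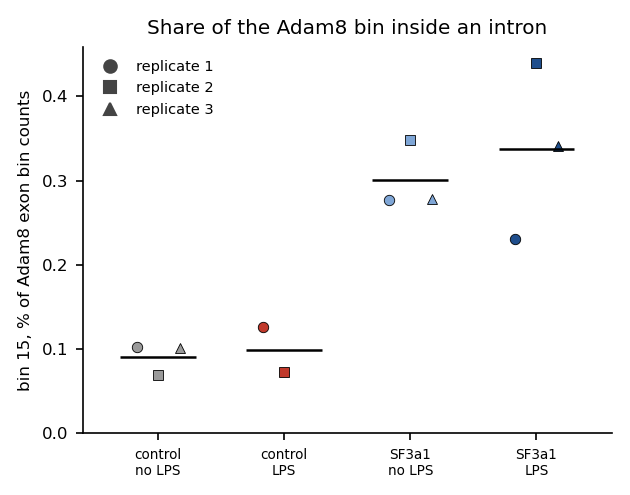
Share of Adam8 exon bin counts in bin 15, the retained intron, for 11 libraries (% of the gene's bin counts, axis from 0; lines are group means). The 6 knockdown libraries lie between 0.231 and 0.440%, above the 5 control libraries at 0.0687 to 0.126%.

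The profile of Timp1 was compared with those of 9971 other genes with a group mean of at least 10 CPM, as the root mean square difference over the 12 libraries after each gene was set to percent of its highest group mean. The most similar were Ifit1bl2 (4.52 percentage points) and Ifit3 (5.31), of the family of interferon-induced proteins with tetratricopeptide repeats, Tnfrsf8 (5.59), which encodes the receptor CD30, Ddx58 (5.71), which encodes the RNA sensor RIG-I, and Nos2 (5.96), the inducible nitric oxide synthase. Knockdown cells with LPS held 24.3% of the Ifit1bl2 level of control cells with LPS, 15.7% for Ifit3, 22.7% for Tnfrsf8, 26.1% for Ddx58 and 12.8% for Nos2, beside 22.5% for Timp1. Within the family, Mmp14 was the most like Timp1 (rank 248, 23.1 percentage points), and Mmp9 ranked 892 and Adam17 1169. The profile describes these libraries, and the genes named depend on the measure: on a log2 scale none of the 5 remained.

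**Figure D4:**
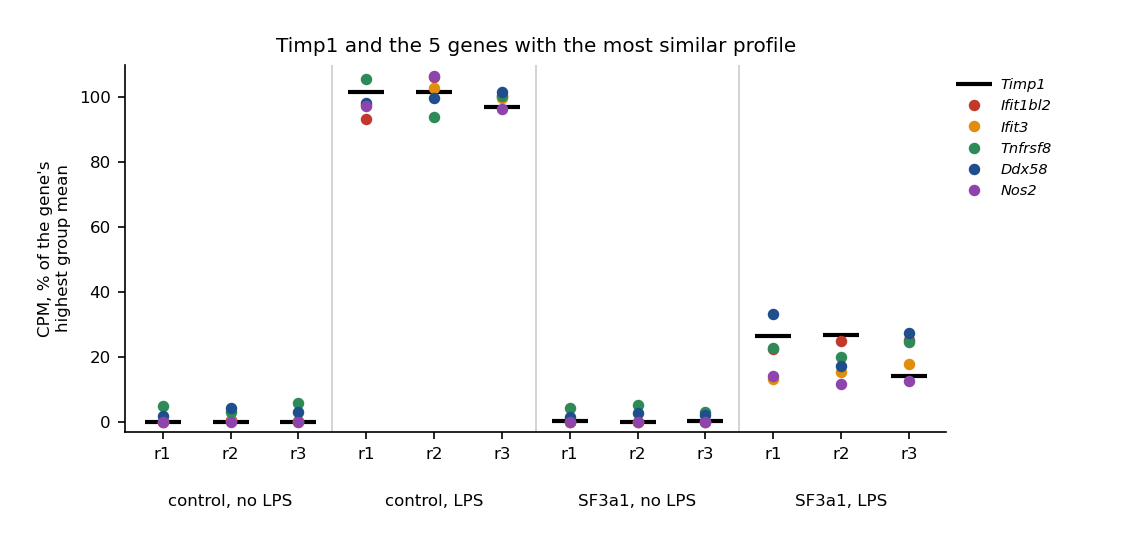
Levels of Timp1 (black bars) and of the 5 genes most similar to it (dots) in the 12 libraries, as percent of each gene's highest group mean. In the knockdown libraries with LPS, Timp1 lies between 14.1 and 26.8%, and the 5 other genes lie between 11.7 and 33.4%.

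Most other members of these families had too few counts for the test. Of 19 further MMP and TIMP genes, Mmp23 alone had enough counts and it passed in none of the 4 comparisons, and 4 of 11 further ADAM genes and 3 of 19 ADAMTS genes were tested. Among these, LPS lowered Adam10, a sheddase related to ADAM17, in control cells from 228 ± 26.7 to 112 ± 22.7 CPM (SD, n = 3, log2 -1.03, SE 0.177, adjusted p = 0.000824) and in knockdown cells to 140 ± 24.3 from 213 ± 17.2 CPM (log2 -0.60, adjusted p = 0.0573).
Adam33 stood in control cells with LPS at 1.68, 3.18 and 1.51 CPM, against 2, 0 and 5 counts without LPS, and knockdown cells with LPS held 0.0908, 0.363 and 0.289 CPM. Adamts4, an aggrecanase, had a mean of 2.96 CPM with LPS against 0.148 without in control cells. Adam33 entered the test only through control cells with LPS and Adamts4 only through cells with LPS, so they had to differ and no p is given. Adamts10 fell with LPS in control cells (log2 -1.32, adjusted p = 0.000459) and with SF3a1 siRNA in resting cells (log2 -0.80, adjusted p = 0.0126), and Adam9 was slightly lower in knockdown cells with LPS (log2 -0.29, adjusted p = 0.0799).

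Plasminogen activation makes plasmin, an activator of several metalloproteinase precursors. This list and those below were chosen with earlier results of these data known. Their counts and medians, set beside all genes, describe the lists and are no independent evidence about them. Of 12 genes, 9 were tested: LPS raised 5 and lowered 1 in control cells (median log2 0.74, beside -0.02 for all genes tested, of which 13.8% rose and 18.3% fell), and SF3a1 siRNA raised 5 in resting cells (median 1.01 beside -0.02, with 13.7% of all genes higher). With LPS, SF3a1 siRNA raised 4 and lowered 1 (median 0.54 beside -0.04, with 18.4% of all genes higher and 20.4% lower). Serpinb2, 1 of the 5 counted as raised by LPS, entered the test only through libraries with LPS and had to differ. Plau, the urokinase protease, fell with LPS in control cells from 245, 406 and 338 to 29.5, 97.0 and 76.3 CPM (log2 -2.29, SE 0.348, adjusted p = 0.000331). Resting knockdown cells held 820, 1086 and 990 CPM of Plau and knockdown cells with LPS 389, 511 and 483 CPM. The knockdown libraries lay above the control libraries both without and with LPS, and the rise with SF3a1 siRNA was 1.55 on the log2 scale without LPS (adjusted p = 0.00472) and 2.77 with LPS (adjusted p = 0.000141).
Plaur, the urokinase receptor, rose with LPS in control cells from 76.7 ± 15.6 to 871 ± 172 CPM and in knockdown cells from 155 ± 6.45 to 620 ± 129 CPM (SD, n = 3, log2 3.50 and 2.00, adjusted p = 1.77e-07 and 3.85e-05). With SF3a1 siRNA, Plaur was higher in resting cells (log2 1.01, adjusted p = 0.00256) and lower in cells with LPS (log2 -0.49, adjusted p = 0.0769). Plat, the tissue-type activator, was highest in knockdown cells with LPS, at 11.9, 27.9 and 30.4 CPM against 0.868, 4.53 and 4.43 CPM in control cells with LPS (log2 2.88, adjusted p = 0.00207).

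Serpinb2 and Thbs1 were high with LPS mainly through replicate 1. Serpinb2, which encodes the inhibitor PAI-2, had 0 counts in resting control cells and stood at 66.0, 2.94 and 8.70 CPM with LPS. Thbs1, which encodes the matrix protein thrombospondin-1, had 1, 1 and 0 counts in resting control cells and stood at 38.2, 1.59 and 1.63 CPM with LPS. Both entered the test only through the libraries with LPS, so they had to differ with LPS, and no p is given.

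Of 21 regulators and partners of the proteases, 14 were tested: SF3a1 siRNA raised 9 in resting cells (median log2 0.86, beside -0.02 for all genes tested, of which 13.7% rose) and raised 7 and lowered 1 with LPS (median 0.32 beside -0.04, with 18.4% of all genes higher and 20.4% lower), and LPS raised 5 and lowered 1 in control cells (median 0.44 beside -0.02, with 13.8% higher and 18.3% lower). Thbs1, 1 of the 5 counted as raised by LPS, entered the test only through libraries with LPS and had to differ. Rhbdf2, which encodes iRhom2, the protein that ADAM17 needs to mature in macrophages, rose with LPS from 67.5, 73.5 and 49.7 to 428, 480 and 389 CPM in control cells (log2 2.77, SE 0.241, adjusted p = 3.19e-06). In knockdown cells it stood at 160, 166 and 142 CPM without and 188, 357 and 350 CPM with LPS, so it began higher (log2 1.30, adjusted p = 0.00132) and ended lower (log2 -0.53, adjusted p = 0.0920). Its relative Rhbdf1 (iRhom1) was raised by SF3a1 siRNA without and with LPS (log2 1.47 and 1.32, adjusted p = 0.00319 and 0.00502).
Cd44, the hyaluronan receptor that can hold MMP9 at the cell surface, rose with LPS in control cells from 310 to 1135 CPM and with SF3a1 siRNA in resting cells to 861 CPM (log2 1.87 and 1.47, adjusted p = 6.24e-07 and 2.60e-05). Tspan14, a tetraspanin that pairs with ADAM10, fell with LPS in control cells (log2 -0.93, adjusted p = 0.00270), and Tspan5 of the same group rose with SF3a1 siRNA without and with LPS (log2 0.79 and 1.23, adjusted p = 0.00608 and 0.000326). Lrp1, the receptor that clears proteases and their inhibitors from the cell surface, was higher with SF3a1 siRNA without and with LPS (log2 1.21 and 1.07, adjusted p = 0.0289 and 0.0448).

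**Figure D5:**
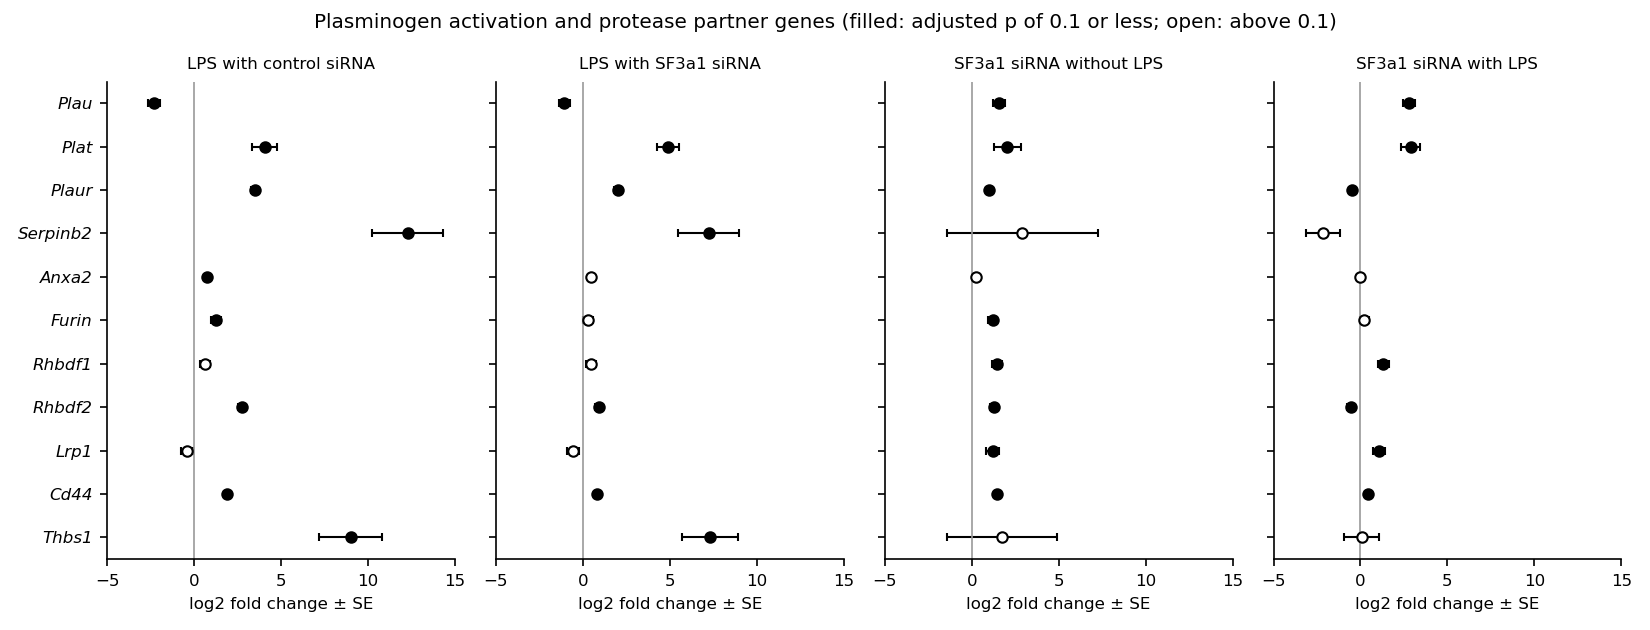
Log2 fold changes with their standard errors for 11 genes of plasminogen activation and of the protease partners, in 4 comparisons. Filled points have an adjusted p of 0.1 or less. Plau lies left of 0 with LPS and right of 0 with SF3a1 siRNA, and Serpinb2 and Thbs1 have the widest errors.

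Of 18 known substrates of ADAM17, 14 were tested, and LPS raised the mRNA of 11 and lowered 1 in control cells (median log2 2.67, beside -0.02 for all genes tested, of which 13.8% rose and 18.3% fell) and raised 7 and lowered 1 in knockdown cells (median 1.01 beside 0.01, with 6.6% higher and 4.06% lower). Of these, Cx3cl1, Ereg and Lag3 entered the test only through libraries with LPS and had to differ. Tnf rose from 41.0, 35.5 and 29.8 to 671, 1873 and 1804 CPM in control cells (log2 5.35, SE 0.491, adjusted p = 5.08e-06) and stood at 424, 1391 and 898 CPM in knockdown cells with LPS. Areg, an EGF receptor ligand, also rose with LPS in control cells (log2 6.44, adjusted p = 5.30e-06). Csf1r, the receptor for the growth factor of macrophages, was the 1 gene of the list that fell (log2 -1.04, adjusted p = 0.000117 in control cells, and log2 -0.55, adjusted p = 0.0278 in knockdown cells).
With SF3a1 siRNA, 5 of the 14 rose in resting cells (median log2 1.10 beside -0.02, with 13.7% of all genes higher), among them the EGF receptor ligands Hbegf and Areg (log2 3.48 and 4.25, adjusted p = 0.00105 and 0.000401). The receptor Mertk is counted among the genes that rose without and with LPS, but it entered the test only through the knockdown libraries and had to differ. In cells with LPS 4 rose, among them Hbegf and Icam1, and 3 fell (median log2 -0.57 beside -0.04, with 18.4% of all genes higher and 20.4% lower). Those that fell were Tnfrsf1b (a TNF receptor), Ptprc (CD45) and Spn (CD43) (log2 -0.88, -0.67 and -0.80, adjusted p = 0.0390, 0.0283 and 0.0377).

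Marker genes of other cell types were checked, since MMP9 is also a product of osteoclasts, to which RAW264.7 cells can differentiate. Of 10 macrophage markers, 9 were above 1 CPM in at least 1 library (all but Mrc1), with Lyz2 the most abundant, and the summed level of the 10 was 10470 ± 596 CPM in resting control cells and 13442 ± 653 CPM in resting knockdown cells (SD, n = 3). LPS raised 6 of the 10 and lowered 1 (Csf1r) in control cells (median log2 0.73 beside -0.02 for all genes tested, of which 13.8% rose and 18.3% fell), where Mrc1, 1 of the 6, entered the test only through libraries with LPS and had to differ, and SF3a1 siRNA raised 3 without LPS (13.7% of all genes higher), among them Spi1, the transcription factor PU.1 (log2 0.59, adjusted p = 0.0132), and raised 3 and lowered 3 with LPS (18.4 and 20.4% of all genes), among them Fcgr1, the high-affinity IgG receptor (log2 -3.20, adjusted p = 6.14e-06). All 8 fibroblast markers and all 6 epithelial markers were under 1 CPM in each of the 12 libraries, as were 7 of 8 neutrophil markers, and S100a8 reached 1.33 CPM in 1 library.
The summed level of 7 osteoclast markers was 196, 39.3 and 127 CPM in resting control cells, 359, 80.0 and 217 CPM with LPS, 1052, 225 and 575 CPM in resting knockdown cells, and 1444, 322 and 759 CPM in knockdown cells with LPS, with Acp5 the most abundant and Calcr and Oscar under 1 CPM in each library. SF3a1 siRNA raised 3 of the 5 that were tested in resting cells (Acp5, Ctsk and Atp6v0d2, adjusted p = 0.0402, 0.0519 and 0.0237; median log2 2.37 beside -0.02 for all genes tested, of which 13.7% rose) and 3 of 5 with LPS (Ctsk, Ocstamp and Atp6v0d2, adjusted p = 0.0459, 0.0357 and 0.00964; median 1.91 beside -0.04, with 18.4% of all genes higher). Replicate 1 was the highest and replicate 2 the lowest in each group, and the sum was higher with SF3a1 siRNA in each replicate. Of the 10 genes, Timp2, Mmp9, Mmp19 and Adam8 were also higher with SF3a1 siRNA in each replicate without LPS. Timp1, Mmp12 and Mmp13 were higher there and Timp3 lower, but on a few counts per library, too few to give a direction. With LPS, Timp2, Mmp13, Mmp19 and Adam8 were higher in each replicate and Timp1 (chosen on this), Mmp14 and Adam17 lower. The share of all genes that moved 1 way in each replicate is not given here. The part of osteoclast genes in these results was not tested.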

How the data were processed

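RAW264.7 cells were transfected with control or SF3a1 siRNA and exposed to LPS or not, with 3 replicates of each of 4 groups, as the labels give them. Per the labels and methods, the authors sequenced polyA RNA on the Ion Proton, mapped reads of at least 30 nt to mm10 with GSNAP and kept unique reads. The deposited counts per gene and per exon bin were made by the authors with HTSeq (0.5.4p) and its DEXSeq script on an Ensembl annotation, and are not normalized. Runs of replicate 1 were combined. Reads outside genes (17.75 to 27.2% of reads) stayed out of library sizes and tests.

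Gene counts were fitted over all 12 libraries with edgeR 4.0.16 (R 4.3.3) after filterByExpr and TMM, with 1 mean per group, and tested by the quasi-likelihood test. Exon bins of 11 libraries were tested with diffSpliceDGE. Calls were made at a Benjamini-Hochberg adjusted p of 0.1 over all features tested. Both steps were tested on simulated data, and the outcome is not reported here. Positions come from GENCODE vM21 (mm10), and bin positions were available for the 7 genes whose rebuilt bins matched in number. P-values measure the spread between cultures of 1 line. Intervals and limits for counts of 0 (3 counts over the group) cover counting error only.

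Libraries with the same replicate number deviated together: the correlation of their deviations from the group means was 0.143 to 0.600 in each of 18 pairs (median 0.357), and -0.523 to 0.345 in 36 other pairs. The fit with the number as a block is therefore given where it changed a call, and for the LPS response of Mmp9. Other alternatives were DESeq2 (1.42.0), limma-voom (3.58.1), other scaling and filters, 2 groups alone, replicates 2 and 3 alone, and leaving out each library.

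The 10 genes and the other lists were chosen with earlier results of these data known. The text names the 10 genes, Sf3a1, overlapping genes, the 5 genes most like Timp1, called bins, and up to 3 called genes per direction, list and comparison with the largest change and a group mean of at least 1 CPM. Mmp23, Ereg, Lag3, Mrc1, S100a8, Calcr, Oscar and, without LPS, Tspan5 and Lrp1 are named outside that rule, after their values were seen. The values of 1 listed gene are not reported here.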

Additional observations from a re-analysis of the deposited data

Results flagged for a closer look

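Mmp9 stood out because its LPS response differed between the siRNAs in the test of the difference itself (-3.48 on the log2 scale, adjusted p = 0.0542). That call was lost with limma-voom (0.265) and without any 1 of 6 libraries (0.106 to 0.145). Without control replicate 1 with LPS the difference was -2.76 (0.0577). The call was kept with the replicate block (adjusted p = 0.000687) and within replicates 2 and 3 (0.00162). Among the partner genes, the same test gave smaller LPS responses with SF3a1 siRNA for Rhbdf2 (-1.83), Cd44 (-1.06), Plaur (-1.50) and Areg (-4.00), an EGF receptor ligand shed by ADAM17. Adjusted p-values were 0.0138 for Rhbdf2, 0.0136 for Cd44, 0.0185 for Plaur and 0.0193 for Areg. These were 2 of 14 regulators and partners tested, 1 of 9 genes of plasminogen activation and 1 of 14 ADAM17 substrates, beside 3.47% of all genes. For Mmp9, Rhbdf2, Cd44, Plaur and Areg the level without LPS was higher with SF3a1 siRNA. Fcgr1, the high-affinity IgG receptor and the 1 called of 10 macrophage markers, showed a difference of -2.83 (adjusted p = 0.00149). It stood at 49.5 CPM in knockdown cells with LPS against 456 CPM in control cells with LPS.

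For Timp1, every knockdown library was below its control counterpart with LPS, where the mean difference was -46.2 CPM. Without LPS every knockdown library was above its control counterpart, which held 0 counts and could not be undercut. Neither direction was tested or is a separate result, since Timp1 was chosen on these values.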

How the results depend on the processing

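The cause of the changes below was not tested except where fewer libraries or features entered the fit. With replicates 2 and 3 only, 7 of the 9 genes besides Timp1 passed for LPS in control cells and 5 for SF3a1 siRNA without LPS. With the replicate block, 3115 genes passed for LPS in knockdown cells, and leaving out 1 library gave 1050 to 2005. For the difference between LPS responses (520 genes), 966 passed with DESeq2, 930 without a filter on low counts, 1756 with the replicate block, 1012 with replicates 2 and 3 only and 306 at a false discovery rate of 0.05, and leaving out 1 library gave 273 to 711. Of the 9 genes, 3 passed there with DESeq2, 0 with limma-voom, 2 without the filter, 3 with the block, 2 with replicates 2 and 3 only, 0 at 0.05, and 0 to 1 without 1 library. For exon bins, the block gave 2 bins without LPS (Adam17 bin 11 beside Adam8 bin 15) and 1 with LPS, a filter of 20 counts gave 1 with LPS, and leaving out 1 library gave 0 to 1 in both. Of the 5 genes most like Timp1, 0 remained on the log2 profile and 3 at 30 CPM. With the block, no member calls changed beyond the 5 given above.

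The values that changed sign were not called in either setting. For Adam8 with LPS in control cells they were 0.01054 (median ratio scaling), 0.01053 (DESeq2), 0.03576 (2 groups alone) and -0.3764 to 0.1826 without 1 library (positive without resting replicate 2, 0.06162, or replicate 2 with LPS, 0.06957, or replicate 3 with LPS). For Adam17 with SF3a1 siRNA without LPS they were -0.0712 (replicates 2 and 3 only) and -0.06733 to 0.1758 without 1 library, negative without knockdown replicate 1. For Mmp9 with SF3a1 siRNA and LPS leaving out 1 library gave -0.8512 to 0.5873, positive without control replicate 1, and 0.1216 and 0.1301 without knockdown replicate 2 or 3. In knockdown cells with LPS, Mmp19 gave -0.04959 (replicates 2 and 3 only) and -0.1937 to 0.3376 without 1 library, Adam8 -0.1177 to 0.02655, and Adam17 -0.1498 to 0.0385. For the difference between responses, Mmp13 gave -1.961 to 0.4981 without 1 library, and Adam8 gave 0.0214 (limma-voom), 0.009292 (block), 0.3541 (replicates 2 and 3 only) and -0.2379 to 0.3211 without 1 library.

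Depth limits Timp3 and Mmp12, which had at most 24 counts in a library. For Mmp19, whose replicate 1 was high, SF3a1 siRNA with LPS passed without control replicate 1 (log2 2.32, adjusted p = 0.00145).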
